A study of Mus musculus and Rattus norvegicus with 28 samples.

Results

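This comparison sets rat ventricular cardiomyocytes kept in culture against mouse ventricular cardiomyocytes used directly after isolation, both isolated at postnatal day 1 (P1). The measure is the RNA level of each gene that carries the same symbol in both species. It rests on 5 of the 28 samples of the series: 3 rat RNA-seq libraries of the DMSO control and 2 mouse P1 RNA-seq libraries. The series follows chromatin accessibility, chromatin contacts and RNA in mouse cardiomyocytes around birth, and tests the histone deacetylase inhibitor trichostatin A (TSA) on rat cardiomyocytes in a dish. The mouse cells came from the left ventricles of C57BL/6 pups and went into the RNA reagent without plating. The rat cells came from the left ventricles of Sprague Dawley pups, were plated, and received DMSO, the solvent of TSA, the day after plating. Collection after 48 h is given in the methods, and the run names of the 3 rat libraries carry the same time, but the step from which it was counted is not stated. Per the study's methods, both sexes were used in each species, the tissue stood in cold trypsin overnight before collagenase, and cells that attached to a dish within a short incubation were discarded. The mouse cells, called fresh here, went through these steps too. Both groups are therefore cardiomyocyte-enriched preparations and are not treated here as pure cell types. The study reports that staining for cardiac troponin T showed high purity of its mouse cells, even at P7. The study calls its replicates biological, but neither it nor the labels say whether they were separate litters or cultures, so the p-values measure the spread between these samples, which may be technical. The treatment passage of the methods also describes transfection with small interfering RNA, and it does not say whether the RNA-seq controls were transfected. Species, genome annotation, StringTie version, culture, DMSO and the time from isolation to collection differ together between the groups and cannot be told apart.

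The cardiomyocyte is the contractile cell of the heart. Around birth rodent cardiomyocytes stop dividing, turn from glucose to fatty acids as fuel, and replace fetal isoforms of the sarcomere by adult ones. Among these is the exchange of the slow beta myosin heavy chain (Myh7) for the fast alpha chain (Myh6) under thyroid hormone. Neonatal rat cardiomyocytes in culture are a standard cell model of heart muscle; in a dish they attach and spread, and such preparations usually hold some fibroblasts and other non-myocytes.

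Gene levels are given as TPM, a transcript's share of all transcripts after division by its length, summed over the transcripts of a gene. Levels of different genes can therefore be set side by side. Of 38759 mouse and 22658 rat symbols that name 1 gene each, 14883 were shared, and 11966 of these reached 1 TPM in at least 2 of the 5 libraries and were tested. Orthology was not checked beyond the shared symbol. A very low value in 1 species therefore need not mean that its counterpart gene is silent there. Matched genes held 79.0 and 80.4% of the TPM of the mouse libraries and 84.3, 84.2 and 85.1% of that of the rat libraries. The libraries rested on similar amounts of aligned sequence, 5.40 and 5.63 Gb in mouse and 5.0, 5.25 and 5.16 Gb in rat. These amounts were estimated from the ratio of coverage to FPKM. In each library 11134 to 11462 matched genes lay at or above 1 TPM. Rat replicate 3 stood apart from the other rat libraries. It lay more than 2-fold above both of them at 225 genes and more than 2-fold below both at 370, together 4.97% of genes, while rat replicates 1 and 2 differed by more than 2-fold at 0.643% and the mouse replicates at 2.43%.

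Expression differed widely between cultured rat and fresh mouse cells. The log2 fold change is the difference of mean log2(TPM + 1), rat minus mouse, given with its standard error (±). A gene is called where limma's Benjamini-Hochberg adjusted p over the 11966 genes is below 0.05 and the log2 fold change exceeds 1 in size. By this rule 4260 genes (35.6%) were called, 2607 higher in rat (21.8%) and 1653 lower in rat (13.8%). Counts in the gene lists below are to be read beside these shares, and counts near them are not particular to a list. The groups did not overlap at 76.2% of genes, with every rat library above both mouse libraries at 44.2% and below both at 32%. The balance of directions depended on scaling. The median gene lay 0.18 higher in rat on the log2 scale, and median-of-ratios scaling, which moved this median by 0.19, gave 2121 genes higher and 2038 lower, so that the share of calls that were higher went from 61.2 to 51.0%. Ranks within each library, which no scaling moves, gave 2587 genes (21.6%) higher and 2582 (21.6%) lower by over 10 percentile points. Ranks have the same mean in every library, and median-of-ratios scaling centers the median gene. Neither can therefore show whether the true balance of directions was even. Levels and ranks together called 2080 genes higher and 1463 lower, with 0 called in opposite directions. Across the tested genes the Spearman correlation was 0.981 between the mouse libraries, 0.961 to 0.992 between rat libraries and on average 0.787 between rat and mouse libraries. The annotations differed as well. The transcript length behind a gene's TPM in rat was at the median 0.958 of that in mouse, 0.865 for genes called higher and 1.00 for genes called lower, and among genes whose lengths were within 1.5 times of each other 1637 were higher and 1269 lower. The length ratio (rat over mouse) is given for each gene described that lies outside that range, and a call that depends on 1 library is given without it. At equal reads a shorter length gives a higher TPM, and the part of length in the change of a single gene was not tested.

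**Figure D1:**
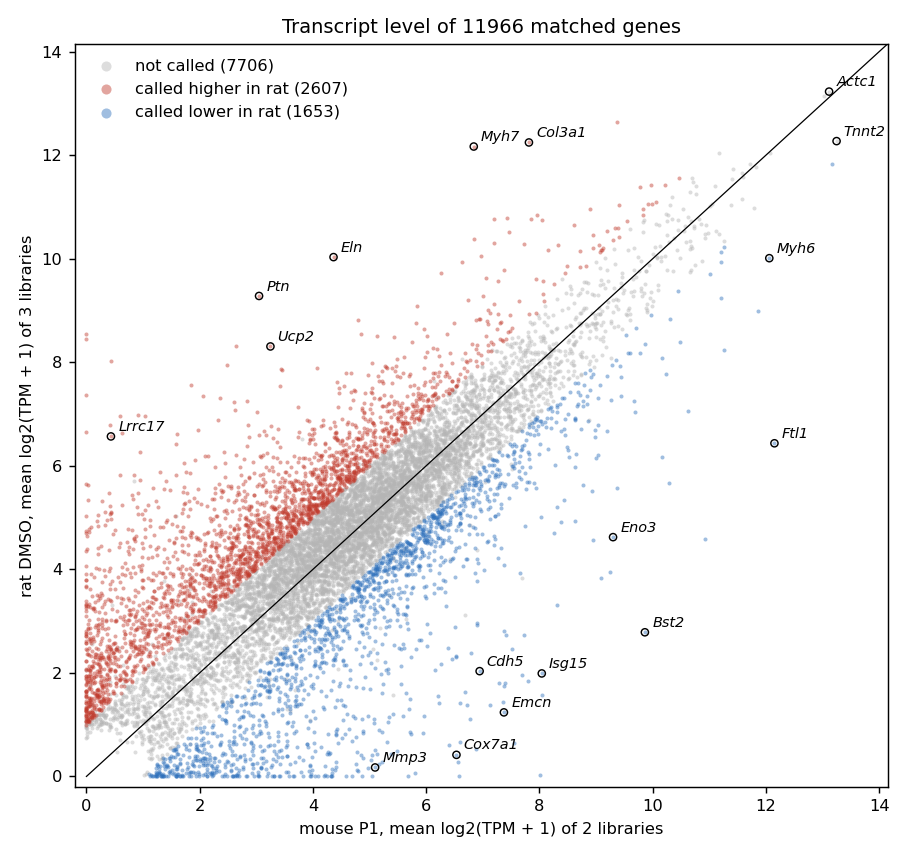
Mean level of each of the 11966 tested genes, log2(TPM + 1), in the 2 mouse P1 libraries (x axis) and the 3 rat DMSO libraries (y axis), with genes called higher or lower in rat colored and named genes marked. The cloud follows the diagonal, with 2607 genes called above it and 1653 below it. Myh7, Eln and Col3a1 lie far above and Bst2, Isg15 and Ftl1 far below.

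Both groups carried the RNA of cardiomyocytes, and markers of the other cell types of the heart divided by type. Of the macrophage markers most were higher in the cultured rat cells, of the endothelial and epicardial markers most were lower, and fibroblast markers went both ways. Cardiomyocyte markers summed to 37040.2 and 59312 TPM in mouse and 32381, 34305 and 42873 TPM in rat, so the groups overlapped, and none of the 15 was at 0 in any library. In this list 4 of the 15 members tested were higher in rat and 3 were lower (median log2 fold change 0.11), beside a median of 0.18 over all genes. By ranks 3 were higher and 0 were lower. The list's median was −0.08 after median-of-ratios scaling, −0.30 without mouse replicate 1 and −0.19 without rat replicate 3. Fibroblast markers summed to 2137 and 2439 TPM in mouse and 13135, 14266 and 13677 TPM in rat, every rat library above both mouse libraries. In this list 6 of the 11 members tested were higher in rat and 3 were lower (median log2 fold change 1.85). The counts were 5 higher and 1 lower without mouse replicate 1, 4 higher and 1 lower without mouse replicate 2, and 5 higher and 2 lower without rat replicate 1. Col1a1, a chain of type I collagen, was at 556 and 786 TPM in mouse and 5613, 6207 and 7597 TPM in rat. Col3a1, the chain of type III collagen, was at 181 and 277 TPM in mouse and 4915, 5283 and 4406 TPM in rat. Postn, periostin, a matrix protein of activated fibroblasts, was at 143 and 90.3 TPM in mouse and 1453, 1499 and 1089 TPM in rat. Col1a1, Col3a1 and Postn were higher in rat, with log2 fold changes of 3.28 ± 0.23, 4.43 ± 0.22 and 3.54 ± 0.24 (adjusted p = 0.000239, 9.72e-05 and 0.000233), and every rat library lay above both mouse libraries. Other fibroblast markers went the opposite way. Thy1, a surface antigen of fibroblasts, was at 134 and 103.3 TPM in mouse and 12.6, 14 and 29.8 TPM in rat. Dcn, the proteoglycan decorin, was at 848 and 908 TPM in mouse and 374, 356 and 182 TPM in rat. Thy1 and Dcn were lower in rat, with log2 fold changes of −2.68 ± 0.37 and −1.60 ± 0.33 (adjusted p = 0.00191 and 0.00763), and the groups did not overlap. Dcn was no longer called without mouse replicate 1 (adjusted p = 0.0662) or without mouse replicate 2 (adjusted p = 0.0706). The study names Dcn as a fibroblast marker that cardiomyocytes do not express, with a promoter that was not accessible in its mouse cells. The source of the Dcn RNA given here was not tested. In RNA from a mixed preparation, more cells of a type and more RNA per cell cannot be told apart.

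Most markers of the vessel lining and of the heart surface were lower in the rat libraries. Endothelial markers summed to 906 and 849 TPM in mouse and 175, 178 and 143 TPM in rat, without overlap, and no endothelial, epicardial or fibroblast marker was at 0 in any library. In the endothelial list 0 of the 11 members tested were higher in rat and 10 were lower (median log2 fold change −1.92). Cdh5, the cadherin of endothelial junctions, was at 131 and 114 TPM in mouse and 4.25, 3.25 and 2.08 TPM in rat. Egfl7, a factor secreted by endothelial cells, was at 143 and 199.8 TPM in mouse and 5.64, 5.79 and 5.51 TPM in rat. Emcn, an endothelial sialomucin, was at 193 and 141 TPM in mouse and 1.51, 2.13 and 0.669 TPM in rat. Cdh5, Egfl7 and Emcn were lower in rat, with log2 fold changes of −4.91 ± 0.25, −4.68 ± 0.17 and −6.14 ± 0.31 (adjusted p = 0.000104, 7.37e-05 and 9.74e-05), and all 3 rat values lay below the mouse values. Emcn had a rat to mouse length ratio of 0.58. Epicardial and mesothelial markers summed to 577 and 777 TPM in mouse and 98.1, 91.5 and 85.2 TPM in rat. In this list 0 of the 8 members tested were higher in rat and 6 were lower (median log2 fold change −4.09). Upk1b, a uroplakin of the mesothelium, was at 155 and 177 TPM in mouse and 1.29, 2.76 and 3.34 TPM in rat. Lrrn4, a mesothelial leucine-rich repeat protein, was at 137 and 176 TPM in mouse and 1.82, 2.54 and 3.19 TPM in rat. Upk1b and Lrrn4 were lower in rat, with log2 fold changes of −5.64 ± 0.29 and −5.49 ± 0.22 (adjusted p = 0.000106 and 8.76e-05), and every rat library lay below both mouse libraries. Macrophage markers went in the other direction, with sums of 162 and 191 TPM in mouse and 881, 927 and 379 TPM in rat. Rat replicate 3 lay below the other rat libraries and above both mouse libraries. In this list 8 of the 11 members tested were higher in rat and 0 were lower (median log2 fold change 2.21), and 5 were higher without mouse replicate 1. Ptprc, the leukocyte antigen CD45, was at 0.546 and 1.02 TPM in mouse and 28.9, 22.9 and 12.2 TPM in rat. Adgre1, the macrophage antigen F4/80, was at 3.51 and 4.94 TPM in mouse and 59.6, 62.2 and 24.6 TPM in rat. Ptprc and Adgre1 were higher in rat, with log2 fold changes of 3.58 ± 0.37 and 3.15 ± 0.43 (adjusted p = 0.000755 and 0.00175), and the groups did not overlap.

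Smooth muscle and pericyte markers were divided. They summed to 2432 and 2319 TPM in mouse and 1996, 1818 and 4876 TPM in rat, with rat replicate 3 above and the other rat libraries below the mouse libraries. In this list 4 of the 10 members tested were higher in rat and 1 was lower (median log2 fold change 1.29), and none was lower without mouse replicate 2. Pdgfrb, the PDGF receptor of mural cells and fibroblasts, was at 42.8 and 27.9 TPM in mouse and 202, 228 and 208 TPM in rat. Notch3, a Notch receptor of mural cells, was at 2.7 and 3.0 TPM in mouse and 36.4, 33.7 and 46.2 TPM in rat. Acta2, smooth muscle actin, was at 1559 and 1665 TPM in mouse and 902, 807 and 2164 TPM in rat. Pdgfrb and Notch3 were higher in rat, with log2 fold changes of 2.59 ± 0.19 and 3.36 ± 0.18 (adjusted p = 0.000282 and 0.000116), and all 3 rat values lay above the mouse values. Acta2 was not called, at a log2 fold change of −0.47 ± 0.43 (adjusted p = 0.383), with overlap between the groups. The 7 red cell genes matched summed to 16.3 and 85.2 TPM in mouse and 51.3, 36.1 and 8.75 TPM in rat. Of these 3 were tested, 1 was lower in rat, and 0 were lower without mouse replicate 1, mouse replicate 2 or rat replicate 2. Schwann and neural markers summed to 68.4 and 65.4 TPM in mouse and 43.4, 44.7 and 80.1 TPM in rat, and 2 of 4 tested were higher.

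**Figure D2:**
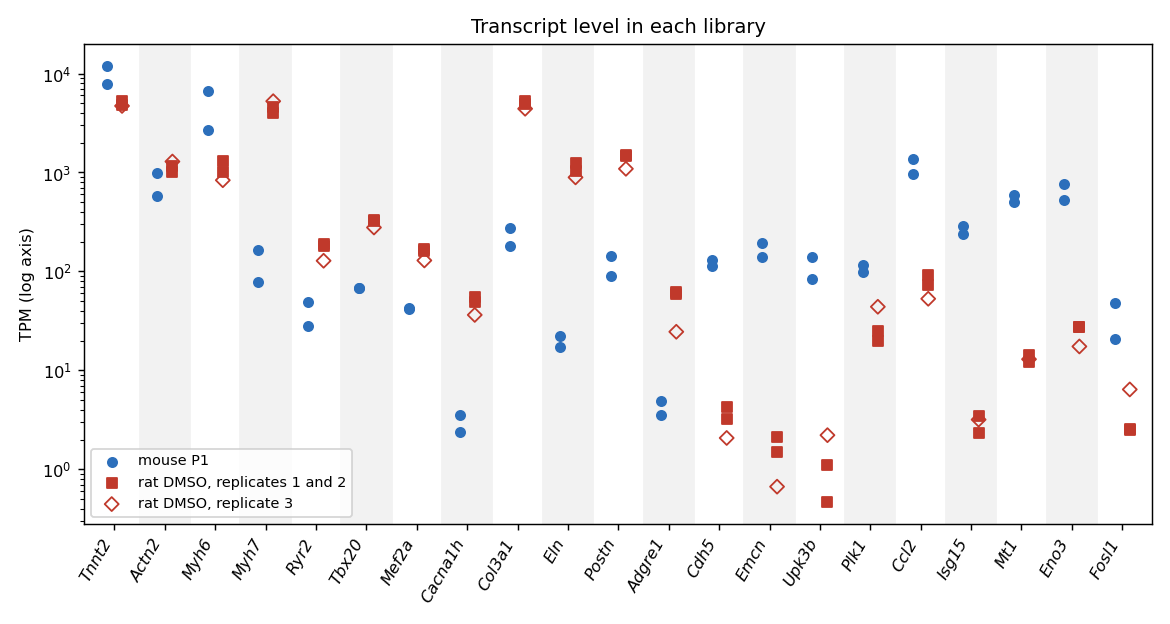
Level of named genes in each library, in TPM on a log axis. Circles are the 2 mouse P1 libraries, filled squares rat DMSO replicates 1 and 2, and open diamonds rat DMSO replicate 3. All 3 rat values lie above both mouse values for Myh7, Col3a1 and Eln and below them for Cdh5, Emcn and Isg15, and the groups do not overlap for Tnnt2, which missed the fold limit.

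The main myosin isoform differed between the groups. Fresh mouse cells held almost solely RNA of the alpha heavy chain, while cultured rat cells held mostly that of the beta chain. Myh7, the slow beta chain, was at 79 and 163 TPM in mouse and 4615, 4008 and 5250.1 TPM in rat. Myh6, the fast alpha chain, was at 2710.1 and 6717 TPM in mouse and 1009.9, 1296 and 835 TPM in rat. Myh7 was higher in rat, with a log2 fold change of 5.33 ± 0.32 (adjusted p = 0.000152), and every rat library lay above both mouse libraries. Myh6 was lower in rat, with a log2 fold change of −2.05 ± 0.41 (adjusted p = 0.00708), and the groups did not overlap. Of the RNA of both chains together, Myh6 made up 97.2 and 97.6% in mouse and 18, 24.4 and 13.7% in rat. At the other mouse ages of the series, the Myh6 share was 43.4 and 42.7% at embryonic day 18.5 (E18.5), 97.3 and 97.5% at P3 and 96.2 and 92.9% at P7, so all 3 rat libraries lay below the mouse libraries of every age. The genes lie next to each other, at chr14:54941921-54966927 and chr14:54970684-54994626 of mm10 (minus strand) and at chr15:33605654-33629699 and chr15:33634422-33656089 of Rnor_6.0. Their coding sequences are alike, so that reads can be split between them.

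The same share was computed for 17 pairs of isoforms or related genes. Every rat library lay above both mouse libraries for 4 pairs and below both for 9, and 4 pairs overlapped. With 3 against 2 libraries the smallest 2-sided p of an exact permutation test is 0.2, or 0.262 after adjustment over the 17 pairs, so no share can pass a threshold of 0.05. Tnni3, the adult troponin I, made up 75.2 and 73.2% in mouse and 45.1, 40.1 and 36.2% in rat of its sum with the fetal Tnni1, lower in every rat library. Cox6a2, the muscle form of a cytochrome oxidase subunit, made up 22.9 and 28.4% in mouse and 61.6, 63.4 and 65% in rat of its sum with the widespread Cox6a1, higher in every rat library. Ldhb, the lactate dehydrogenase subunit of oxidative muscle, made up 23.8 and 25.8% in mouse and 52.3, 51.6 and 42.3% in rat of its sum with Ldha, again higher. Muscle forms of glucose metabolism made up smaller shares in rat. The glucose transporter GLUT4, Slc2a4, made up 35 and 40.0% in mouse and 13.2, 11.7 and 11.2% in rat of its sum with Slc2a1. Hexokinase 2, Hk2, made up 36.7 and 30.9% in mouse and 11.5, 11.6 and 11.2% in rat of its sum with Hk1. The muscle enolase, Eno3, made up 26.5 and 31.7% in mouse and 2.19, 2.31 and 1.2% in rat of its sum with Eno1. Pgam2, the muscle phosphoglycerate mutase, made up 46.3 and 52.2% in mouse and 12.1, 12.6 and 3.84% in rat of its sum with Pgam1, and rat replicate 3 was the lowest. None of these shares overlapped between the groups.

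**Figure D3:**
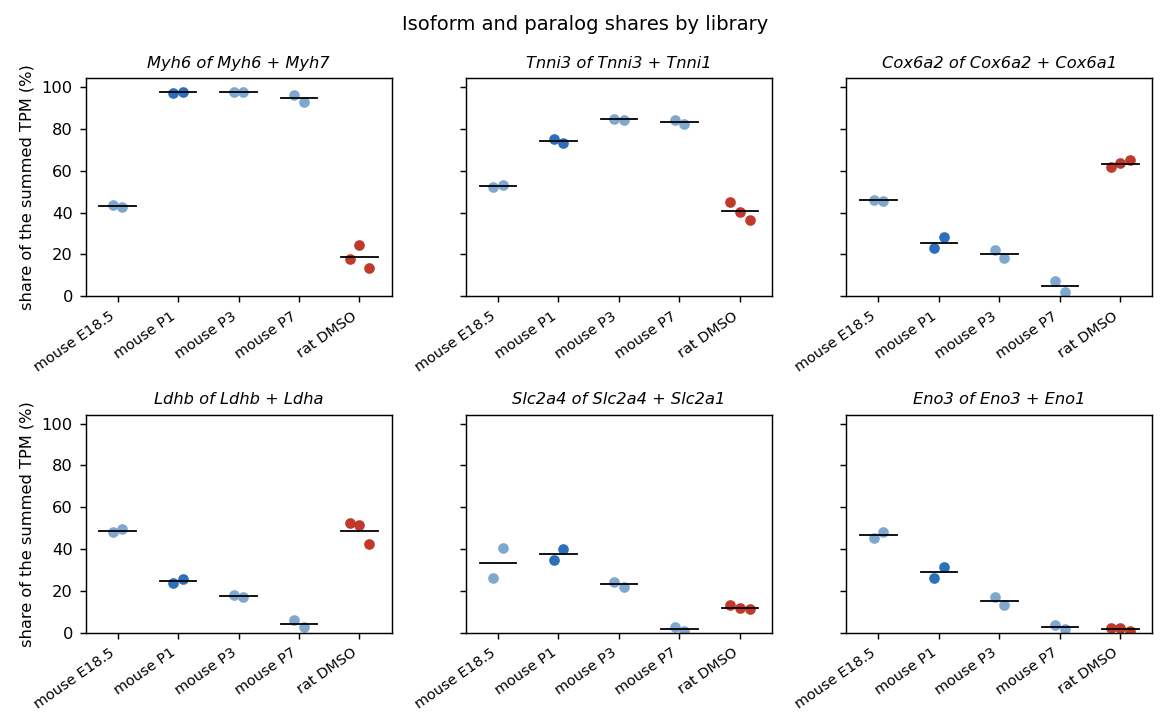
Share of the first gene of a pair in the summed TPM of both genes (y axis, percent) for 6 of the 17 pairs, by group (x axis). Points are libraries, 2 at each mouse age and 3 of rat DMSO, and lines are means. The Myh6 share is 97.2 and 97.6% in mouse P1 and 13.7 to 24.4% in rat, while the Cox6a2 and Ldhb shares are larger in rat than in mouse P1.

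Genes of the sarcomere and Z-disc list mostly did not pass the test, beside 35.6% of all tested genes called. This list leaves out the myosin chains, Tnnt2 and Tpm1, which are given apart. In the sarcomere and Z-disc list 2 of the 16 members tested were higher in rat and 1 was lower (median log2 fold change 0.53). Without mouse replicate 2 the count higher was 5, without mouse replicate 1 or rat replicate 1 it was 1, and without rat replicate 3 the count lower was 2. Actc1, cardiac actin, was at 6677 and 11785 TPM in mouse and 7116, 8493 and 14600.5 TPM in rat. Mybpc3, cardiac myosin-binding protein C, was at 699.6 and 1120.3 TPM in mouse and 939, 963 and 1092 TPM in rat. Actc1 and Mybpc3 were not called, at log2 fold changes of 0.11 ± 0.42 and 0.17 ± 0.22 (adjusted p = 0.83 and 0.535), with overlap between the groups. Myom2, the M-band protein myomesin-2, was at 94.4 and 159 TPM in mouse and 44.5, 28.6 and 33.6 TPM in rat. Myom2 was lower in rat, with a log2 fold change of −1.78 ± 0.28 (adjusted p = 0.00289), and all 3 rat values lay below the mouse values. Further abundant sarcomere genes stood as follows. Tpm1, alpha tropomyosin, was at 7637 and 11007 TPM in mouse and 3216, 3519.9 and 4302 TPM in rat. Myl2, the ventricular regulatory light chain, was at 2988 and 4608 TPM in mouse and 428, 496 and 608 TPM in rat. Tnnt2, cardiac troponin T, was at 7901 and 11966 TPM in mouse and 4814, 5333 and 4704 TPM in rat. Tpm1 and Myl2 were lower in rat, with log2 fold changes of −1.33 ± 0.25 and −2.87 ± 0.25 (adjusted p = 0.00572 and 0.000428), and every rat library lay below both mouse libraries. Tnnt2 was not called, at a log2 fold change of −0.98 ± 0.25 (adjusted p = 0.0169), although the groups did not overlap. Tnnt2 was called without mouse replicate 1 (log2 fold change −1.28). Tnnt2 also passed after median-of-ratios scaling.

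Genes of calcium handling and of the membrane current were higher in rat more often than lower, as were all tested genes (21.8% higher and 13.8% lower). In the calcium list 5 of the 14 members tested were higher in rat and 1 was lower (median log2 fold change 0.54), and none was lower without mouse replicate 2. Ryr2, the calcium release channel of the sarcoplasmic reticulum, was at 28.2 and 49.2 TPM in mouse and 183, 190.2 and 128 TPM in rat. Pln, phospholamban, which restrains the calcium pump, was at 267 and 389 TPM in mouse and 1700.2, 1544 and 716 TPM in rat. Atp2a2, that pump, SERCA2, was at 1314 and 2462 TPM in mouse and 2318, 2503 and 899 TPM in rat. Ryr2 and Pln were higher in rat, with log2 fold changes of 2.11 ± 0.28 and 1.94 ± 0.41 (adjusted p = 0.00169 and 0.00847), and the groups did not overlap. Atp2a2 was not called, at a log2 fold change of −0.05 ± 0.52 (adjusted p = 0.938), with overlap between the groups. Pln had a rat to mouse length ratio of 1.54. Pln was no longer called without mouse replicate 1 (adjusted p = 0.0912). Rat replicate 3 had the lowest Atp2a2 value of the 5. In the ion channel list 8 of the 14 members tested were higher in rat and 1 was lower (median log2 fold change 1.08). After median-of-ratios scaling 6 were higher, and 5 were higher without rat replicate 1 or rat replicate 2. Cacna1g, a T-type calcium channel subunit, was at 13.7 and 32.2 TPM in mouse and 142, 170.1 and 202 TPM in rat. Cacna1h, another T-type subunit, was at 2.38 and 3.52 TPM in mouse and 48.9, 54.9 and 36.3 TPM in rat. Kcnd3, a subunit of the transient outward potassium current, was at 0.157 and 0.13 TPM in mouse and 13.7, 11.8 and 6.84 TPM in rat. Cacna1g, Cacna1h and Kcnd3 were higher in rat, with log2 fold changes of 2.95 ± 0.35, 3.59 ± 0.23 and 3.32 ± 0.30 (adjusted p = 0.00116, 0.000192 and 0.000504), and all 3 rat values lay above the mouse values. Hcn4, the main pacemaker channel subunit, was at 3.31 and 6.91 TPM in mouse and 18.3, 16.9 and 9.46 TPM in rat. Hcn4 was higher in rat, with a log2 fold change of 1.40 ± 0.38 (adjusted p = 0.0205), and every rat library lay above both mouse libraries. Hcn4 was no longer called without mouse replicate 1 (adjusted p = 0.152), rat replicate 1 (adjusted p = 0.0634) or without rat replicate 2 (adjusted p = 0.0572). At the intercalated disc, the junction between cardiomyocytes, 3 of the 11 members tested were higher in rat and 0 were lower (median log2 fold change 0.43). Vcl, vinculin of the adherens junction, was at 102.8 and 133 TPM in mouse and 311, 258 and 352 TPM in rat. Dsg2, a desmosomal cadherin, was at 16.9 and 25.6 TPM in mouse and 55.3, 52.1 and 53.4 TPM in rat. Gja1, the gap junction protein connexin 43, was at 428 and 765 TPM in mouse and 613, 590.3 and 158 TPM in rat. Vcl and Dsg2 were higher in rat, with log2 fold changes of 1.37 ± 0.18 and 1.32 ± 0.19 (adjusted p = 0.00159 and 0.00201), and the groups did not overlap. Gja1 was not called, at a log2 fold change of −0.57 ± 0.64 (adjusted p = 0.472), with overlap between the groups. Gja1 was lowest in rat replicate 3.

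Several transcription factors of cardiomyocyte identity were higher in the cultured rat cells. In the cardiac factor list 5 of the 13 members tested were higher in rat and 1 was lower (median log2 fold change 0.55), with 3 higher without mouse replicate 1. Of the 8 tested members with lengths within 1.5 times, 3 were higher and 0 were lower. Gata4, a zinc finger factor of heart formation, was at 74.5 and 87.9 TPM in mouse and 215, 195 and 261 TPM in rat. Tbx20, a T-box factor of the heart, was at 68.5 and 68.2 TPM in mouse and 323, 330.3 and 278 TPM in rat. Nkx2-5, the homeodomain factor of the cardiac lineage, was at 148 and 221 TPM in mouse and 324, 326 and 328 TPM in rat. Gata4 and Tbx20 were higher in rat, with log2 fold changes of 1.45 ± 0.16 and 2.16 ± 0.12 (adjusted p = 0.00088 and 0.000116), and all 3 rat values lay above the mouse values. Nkx2-5 was not called, at a log2 fold change of 0.85 ± 0.18 (adjusted p = 0.00874), although the groups did not overlap. Tbx20 had a rat to mouse length ratio of 0.21. Nkx2-5 was called without mouse replicate 2 (log2 fold change 1.13). Hand2, a basic helix-loop-helix factor of the ventricle, was at 114 and 119 TPM in mouse and 60.2, 59.9 and 35.3 TPM in rat. Hand2 was lower in rat, with a log2 fold change of −1.19 ± 0.25 (adjusted p = 0.00847), and every rat library lay below both mouse libraries. Hand2 had a rat to mouse length ratio of 0.28. Hand2 missed the fold limit without rat replicate 3 (log2 fold change −0.94). Hand2 was no longer called without mouse replicate 1 (adjusted p = 0.0688) or without mouse replicate 2 (adjusted p = 0.0727). Among the MEF2 factors, which switch on muscle genes, and the class IIa histone deacetylases that bind them, 2 of the 7 members tested were higher in rat and 0 were lower (median log2 fold change 0.64). Of the 3 with lengths within 1.5 times, 0 were higher and 0 were lower. Mef2a, at chr7:67231163-67372858 of mm10 and chr1:128209971-128341263 of Rnor_6.0, was at 41.4 and 43.2 TPM in mouse and 167, 162 and 129 TPM in rat. Mef2c, the member needed for heart looping, was at 6.56 and 9.38 TPM in mouse and 21.5, 23.8 and 16.2 TPM in rat. Mef2d, another member of the family, was at 55 and 65.8 TPM in mouse and 103.97, 102 and 82.4 TPM in rat. Mef2a and Mef2c were higher in rat, with log2 fold changes of 1.82 ± 0.14 and 1.26 ± 0.23 (adjusted p = 0.000332 and 0.00508), and the groups did not overlap. Mef2d was not called, at a log2 fold change of 0.66 ± 0.15 (adjusted p = 0.0119), although the groups did not overlap. Mef2a, Mef2c and Mef2d had rat to mouse length ratios of 0.61, 1.70 and 0.50.

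Genes of the fetal and stress program, many of which are high before birth and return in the stressed heart, were uneven across the rat libraries. Not all fell with mouse age here. From E18.5 to P7 the log2 change was −1.67 for Nppa and −4.80 for Acta1, but −0.09, −0.19 and −0.38 for Ankrd1, Fhl1 and Mybphl. Summed cardiomyocyte markers fell too, from 61656 and 76477 TPM at E18.5 to 7005 and 3529 TPM at P7. A fall with age was thus not particular to this list, and the part of the marker shift in these changes was not tested. In this list 4 of the 12 members tested were higher in rat and 1 was lower (median log2 fold change 0.76), and 6 members lay over 2-fold above both other rat libraries in rat replicate 3. The count higher was 1 without mouse replicate 1 and 2 without mouse replicate 2. Nppa, the atrial natriuretic peptide, was at 3709 and 4958 TPM in mouse and 2331, 2131 and 14958 TPM in rat. Ankrd1, a stretch-induced nuclear protein, was at 2873 and 2601 TPM in mouse and 2951, 2353 and 5695 TPM in rat. Nppa and Ankrd1 were not called, at log2 fold changes of −0.03 ± 0.87 and 0.32 ± 0.39 (adjusted p = 0.981 and 0.503), with overlap between the groups. For both genes rat replicate 3 was the highest of the 5 libraries. Acta1, skeletal actin, was at 8.94 and 11 TPM in mouse and 119.5, 126 and 786 TPM in rat. Fhl1, a stretch-responsive LIM protein, was at 59.4 and 62.9 TPM in mouse and 286, 219 and 1016 TPM in rat. Mybphl, a myosin-binding protein of the atrium, was at 35.2 and 43.8 TPM in mouse and 3.58, 3.32 and 2.28 TPM in rat. Acta1 and Fhl1 were higher in rat, with log2 fold changes of 4.39 ± 0.83 and 2.69 ± 0.64 (adjusted p = 0.00578 and 0.0132), and all 3 rat values lay above the mouse values. Mybphl was lower in rat, with a log2 fold change of −3.33 ± 0.21 (adjusted p = 0.000186), and every rat library lay below both mouse libraries. Mybphl had a rat to mouse length ratio of 1.79. Acta1 and Fhl1 were no longer called without mouse replicate 1 (adjusted p = 0.0679 and 0.105) or without mouse replicate 2 (adjusted p = 0.0553 and 0.0928). The library numbered 3 of the rat cells given 100 nM TSA had the same feature: Nppa was at 20189 TPM there against 2282 and 2178 TPM in the other TSA libraries, and Acta1 at 1701 TPM against 212 and 226 TPM.

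Among fuel genes, several of glucose use were lower in rat. In the glycolysis list 2 of the 18 members tested were higher in rat and 6 were lower (median log2 fold change −0.17), with 1 higher without mouse replicate 1. Eno3, the muscle enolase, was at 522 and 758 TPM in mouse and 27.2, 27.7 and 17.4 TPM in rat. Pgam2, the muscle phosphoglycerate mutase, was at 437 and 543 TPM in mouse and 61.3, 61.7 and 23.1 TPM in rat. Tpi1, triosephosphate isomerase, was at 593 and 813 TPM in mouse and 168, 127 and 197 TPM in rat. Eno3, Pgam2 and Tpi1 were lower in rat, with log2 fold changes of −4.68 ± 0.26, −3.42 ± 0.44 and −2.1 ± 0.23 (adjusted p = 0.000121, 0.00149 and 0.000861), and the groups did not overlap. Slc2a4, the insulin-responsive transporter GLUT4, was at 49.6 and 88 TPM in mouse and 18.1, 19.2 and 11.6 TPM in rat. Hk2, the muscle hexokinase, was at 55.7 and 77.5 TPM in mouse and 22, 22.2 and 21.3 TPM in rat. Ldha, lactate dehydrogenase A, was at 1388 and 1866 TPM in mouse and 1201, 1231 and 1458 TPM in rat. Slc2a4 and Hk2 were lower in rat, with log2 fold changes of −1.99 ± 0.32 and −1.55 ± 0.17 (adjusted p = 0.00306 and 0.000804), and all 3 rat values lay below the mouse values. Ldha was not called, at a log2 fold change of −0.32 ± 0.19 (adjusted p = 0.188), with overlap between the groups. An aldolase went the other way. Aldoc, an aldolase best known from brain, was at 3.6 and 10.4 TPM in mouse and 143, 181 and 51.1 TPM in rat. Aldoc was higher in rat, with a log2 fold change of 3.94 ± 0.63 (adjusted p = 0.00313), and every rat library lay above both mouse libraries. Aldoc had a rat to mouse length ratio of 0.62. Of the hypoxia targets, 0 of the 13 members tested were higher in rat and 2 were lower (median log2 fold change 0.17), and the median was −0.02 after median-of-ratios scaling. Without mouse replicate 2 the count higher was 4, and without rat replicate 3 it was 1. Adm, the vasodilator adrenomedullin, was at 171 and 108 TPM in mouse and 35.1, 33.7 and 36 TPM in rat. Adm was lower in rat, with a log2 fold change of −1.93 ± 0.20 (adjusted p = 0.000758), and the groups did not overlap.

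Genes of fatty acid oxidation and the respiratory chain mostly did not pass. For fatty acid oxidation 1 of the 16 members tested was higher in rat and 1 was lower (median log2 fold change 0.07), and the median was −0.13 after median-of-ratios scaling. In rat replicate 3, 5 members lay over 2-fold below both other rat libraries, and without it 3 were higher. None was higher without mouse replicate 1, and none lower without mouse replicate 2 or rat replicate 2. Fabp3, the fatty acid-binding protein of heart, was at 647 and 748 TPM in mouse and 745, 736 and 739 TPM in rat. Acadl, the long-chain acyl-CoA dehydrogenase, was at 366 and 402 TPM in mouse and 377, 307 and 294 TPM in rat. Decr1, a reductase for unsaturated fatty acids, was at 41.1 and 49.3 TPM in mouse and 212, 146 and 96.5 TPM in rat. Decr1 was higher in rat, with a log2 fold change of 1.66 ± 0.32 (adjusted p = 0.00645), and all 3 rat values lay above the mouse values. Fabp3 and Acadl were not called, at log2 fold changes of 0.09 ± 0.12 and −0.24 ± 0.15 (adjusted p = 0.55 and 0.195), with overlap between the groups. Decr1 had a rat to mouse length ratio of 0.39. Decr1 was no longer called without mouse replicate 1 (adjusted p = 0.0733). Of the receptors PPAR and ERR, their coactivators and their targets, 6 of the 17 members tested were higher in rat and 2 were lower (median log2 fold change 0.47), with 1 lower without mouse replicate 1 or mouse replicate 2. Ppara, the fatty acid receptor of liver and heart, was at 0.985 and 1.8 TPM in mouse and 22.6, 24.8 and 11.1 TPM in rat. Ucp2, a mitochondrial uncoupling protein, was at 9.35 and 7.74 TPM in mouse and 376, 276 and 302 TPM in rat. Acot1, a cytosolic acyl-CoA thioesterase, was at 10.6 and 10.7 TPM in mouse and 0.845, 2.39 and 1.69 TPM in rat. Ppara and Ucp2 were higher in rat, with log2 fold changes of 3.04 ± 0.38 and 5.06 ± 0.17 (adjusted p = 0.00128 and 6.78e-05), and every rat library lay above both mouse libraries. Acot1 was lower in rat, with a log2 fold change of −2.18 ± 0.28 (adjusted p = 0.00152), and the groups did not overlap. Ucp2 had a rat to mouse length ratio of 0.48. Of the respiratory chain and ATP synthase, 1 of the 19 members tested was higher in rat and 1 was lower (median log2 fold change 0.03), with a median of −0.16 after median-of-ratios scaling and 2 higher without mouse replicate 2 or rat replicate 3. Cox4i1, a core cytochrome oxidase subunit, was at 1207 and 1473 TPM in mouse and 1455, 1338 and 1249 TPM in rat. Cox6a2, the muscle form of subunit VIa, was at 389 and 580.03 TPM in mouse and 1754, 1972 and 2258 TPM in rat. Cox7a1, the muscle form of subunit VIIa, was at 76.4 and 110.05 TPM in mouse and 0.616, 0.379 and 0.0678 TPM in rat. Cox6a2 was higher in rat, with a log2 fold change of 2.06 ± 0.22 (adjusted p = 0.000773), and all 3 rat values lay above the mouse values. Cox7a1 was lower in rat, with a log2 fold change of −6.12 ± 0.26 (adjusted p = 8.76e-05), and every rat library lay below both mouse libraries. Cox4i1 was not called, at a log2 fold change of 0.01 ± 0.16 (adjusted p = 0.955), with overlap between the groups. Cox7a1 had a rat to mouse length ratio of 3.75.

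Cell cycle genes that passed the test were lower in rat. In this list 0 of the 25 members tested were higher in rat and 11 were lower (median log2 fold change −0.98). The count depended on the setting, with 16 lower after median-of-ratios scaling, 9 lower and 1 higher on FPKM, 4 lower without mouse replicate 1, and 1 higher without rat replicate 1 or rat replicate 2. Plk1, the mitotic polo-like kinase, was at 116 and 99.2 TPM in mouse and 25.2, 19.8 and 44 TPM in rat. Aurka, the spindle kinase Aurora A, was at 59 and 55.8 TPM in mouse and 15.1, 10.5 and 23.4 TPM in rat. Birc5, the mitotic protein survivin, was at 123 and 108 TPM in mouse and 34.8, 18.5 and 46.8 TPM in rat. Plk1, Aurka and Birc5 were lower in rat, with log2 fold changes of −1.90 ± 0.33, −1.82 ± 0.31 and −1.85 ± 0.37 (adjusted p = 0.00408, 0.00403 and 0.0069), and the groups did not overlap. Plk1, Aurka and Birc5 were no longer called without mouse replicate 1 (adjusted p = 0.0546, 0.051 and 0.075). Birc5 was no longer called without mouse replicate 2 (adjusted p = 0.0563). Pcna, the replication clamp, was at 324 and 239 TPM in mouse and 167, 136 and 161 TPM in rat. Cdkn1a, the cell cycle inhibitor p21, was at 284 and 240.4 TPM in mouse and 126, 135 and 136 TPM in rat. Pcna and Cdkn1a were not called, at log2 fold changes of −0.85 ± 0.17 and −0.98 ± 0.12 (adjusted p = 0.00708 and 0.00116), although the groups did not overlap. Cdkn1a and Pcna were called without mouse replicate 2 (log2 fold changes −1.10 and −1.07). Both passed after median-of-ratios scaling. In the list of the insulin-like growth factor axis and imprinted growth genes, 3 of the 15 members tested were higher in rat and 3 were lower (median log2 fold change −0.11), with 1 lower without mouse replicate 1, mouse replicate 2 or rat replicate 1, and a median of 0.01 on FPKM. Igf2r, the receptor that clears IGF2, was at 81.2 and 82.1 TPM in mouse and 359, 383 and 379.7 TPM in rat. Igf1, the growth factor IGF1, was at 10.3 and 10.9 TPM in mouse and 77.9, 77.9 and 47.3 TPM in rat. Mest, an imprinted gene of the embryo, was at 364 and 431 TPM in mouse and 97.9, 119 and 20.4 TPM in rat. Igf2r and Igf1 were higher in rat, with log2 fold changes of 2.18 ± 0.10 and 2.53 ± 0.24 (adjusted p = 9.12e-05 and 0.00061), and all 3 rat values lay above the mouse values. Mest was lower in rat, with a log2 fold change of −2.65 ± 0.74 (adjusted p = 0.0232), and every rat library lay below both mouse libraries. Igf1 and Mest had rat to mouse length ratios of 0.38 and 0.40. Mest was no longer called without mouse replicate 1 (adjusted p = 0.129) or without mouse replicate 2 (adjusted p = 0.145).

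Extracellular matrix genes that passed the test were higher in rat. In this list 14 of the 23 members tested were higher in rat and 0 were lower (median log2 fold change 1.16), with 10 higher after median-of-ratios scaling and 1 lower without rat replicate 3. By ranks 6 were higher and 0 were lower, beside 21.6% of all tested genes in each direction. Eln, elastin, at chr5:134702593-134747323 of mm10 and chr12:24978483-25021863 of Rnor_6.0, was at 22.3 and 17.2 TPM in mouse and 1237, 1034 and 892 TPM in rat. Col5a1, a chain of type V collagen, was at 74 and 77 TPM in mouse and 786, 813 and 957 TPM in rat. Lama2, the laminin chain of the muscle basement membrane, was at 4.2 and 8.81 TPM in mouse and 186, 188 and 98.9 TPM in rat. Eln, Col5a1 and Lama2 were higher in rat, with log2 fold changes of 5.67 ± 0.18, 3.47 ± 0.13 and 4.41 ± 0.39 (adjusted p = 6.7e-05, 7.06e-05 and 0.000459), and the groups did not overlap. Bgn, the proteoglycan biglycan, was at 923 and 824 TPM in mouse and 2382, 2752 and 2896 TPM in rat. Sparc, the matrix protein osteonectin, was at 2163 and 2459 TPM in mouse and 4094, 4104 and 4531 TPM in rat. Bgn was higher in rat, with a log2 fold change of 1.61 ± 0.16 (adjusted p = 0.000624), and all 3 rat values lay above the mouse values. Sparc was not called, at a log2 fold change of 0.88 ± 0.17 (adjusted p = 0.00579), although the groups did not overlap. The sum of fibroblast markers moved in the same direction, as given above, and its part in the matrix values was not tested. Proteases and their inhibitors were divided. In this list 3 of the 15 members tested were higher in rat and 6 were lower (median log2 fold change 0.58), with 3 lower without mouse replicate 1. Mmp2, a gelatinase of fibroblasts, was at 156 and 111 TPM in mouse and 874, 953 and 587 TPM in rat. Mmp9, a gelatinase of leukocytes, was at 0.471 and 2.5 TPM in mouse and 63.2, 61.1 and 26.4 TPM in rat. Mmp2 and Mmp9 were higher in rat, with log2 fold changes of 2.57 ± 0.26 and 4.4 ± 0.52 (adjusted p = 0.000672 and 0.00109), and every rat library lay above both mouse libraries. Mmp3, the protease stromelysin-1, was at 40.2 and 27.5 TPM in mouse and 0, 0.0802 and 0.327 TPM in rat. Mmp3 was lower in rat, with a log2 fold change of −4.92 ± 0.24 (adjusted p = 9.72e-05), and the groups did not overlap. Mmp13, a collagenase, was at 3.27 and 5.55 TPM in mouse and is listed at 0 in all 3 rat libraries.

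Genes of TGF beta signalling, a driver of matrix production, were called in both directions. The counts were near the shares of all tested genes, 21.8% higher and 13.8% lower. In this list 4 of the 16 members tested were higher in rat and 3 were lower (median log2 fold change 0.31). Tgfb1, the ligand, was at 85.6 and 85.9 TPM in mouse and 96.5, 101 and 85.8 TPM in rat. Tgfbr2, the type II receptor, was at 21 and 19.3 TPM in mouse and 109, 122 and 73.9 TPM in rat. Ltbp2, a latent TGF beta-binding protein of elastic fibers, was at 4.45 and 5.78 TPM in mouse and 111, 113 and 264 TPM in rat. Tgfbr2 and Ltbp2 were higher in rat, with log2 fold changes of 2.25 ± 0.23 and 4.63 ± 0.40 (adjusted p = 0.000676 and 0.000445), and all 3 rat values lay above the mouse values. Tgfb1 was not called, at a log2 fold change of 0.13 ± 0.11 (adjusted p = 0.339), with overlap between the groups. Tgfbr2 had a rat to mouse length ratio of 0.38. Bmp4, a ligand of the BMP branch, was at 72.2 and 47.5 TPM in mouse and 19.3, 15.2 and 13.2 TPM in rat. Bmp4 was lower in rat, with a log2 fold change of −1.84 ± 0.24 (adjusted p = 0.00152), and every rat library lay below both mouse libraries. For the actin cytoskeleton and targets of the factor SRF, 2 of the 18 members tested were higher in rat and 1 was lower (median log2 fold change 0.33). None was lower without mouse replicate 1, 1 was higher without mouse replicate 2, and 5 lay over 2-fold above both other rat libraries in rat replicate 3. Actb, beta actin, was at 1895 and 1591 TPM in mouse and 2662, 2638 and 2854 TPM in rat. Tpm2, beta tropomyosin, was at 157 and 134 TPM in mouse and 437, 410.2 and 954 TPM in rat. Tpm2 was higher in rat, with a log2 fold change of 1.93 ± 0.38 (adjusted p = 0.00662), and the groups did not overlap. Actb was not called, at a log2 fold change of 0.65 ± 0.16 (adjusted p = 0.0144), although the groups did not overlap. Tpm2 was no longer called without mouse replicate 1 (adjusted p = 0.0578) or without mouse replicate 2 (adjusted p = 0.0692). For targets of YAP and TEAD, the effectors of the Hippo pathway, 1 of the 14 members tested was higher in rat and 3 were lower (median log2 fold change −0.02). The median was 0.09 on FPKM, and 2 were higher without rat replicate 3. Axl, a receptor kinase, was at 328 and 265 TPM in mouse and 93.8, 91.1 and 134 TPM in rat. F3, tissue factor, was at 40.9 and 46.2 TPM in mouse and 15.7, 16.5 and 15.2 TPM in rat. Ccn1, the matrix protein CYR61, was at 775 and 489 TPM in mouse and 128, 86 and 322 TPM in rat. Axl, F3 and Ccn1 were lower in rat, with log2 fold changes of −1.48 ± 0.21, −1.41 ± 0.13 and −2.01 ± 0.56 (adjusted p = 0.00191, 0.000505 and 0.0228), and all 3 rat values lay below the mouse values. Ccn1 was no longer called without mouse replicate 1 (adjusted p = 0.176), mouse replicate 2 (adjusted p = 0.0856) or without rat replicate 1 (adjusted p = 0.0658). Ccn2, connective tissue growth factor, was at 1175 and 715 TPM in mouse and 464, 343 and 1673 TPM in rat. Ccn2 was not called, at a log2 fold change of −0.51 ± 0.68 (adjusted p = 0.545), with overlap between the groups. Ccn2 was called without rat replicate 3 (log2 fold change −1.2). For Ccn2, rat replicate 3 lay above and the other rat libraries below both mouse libraries.

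**Figure D4:**
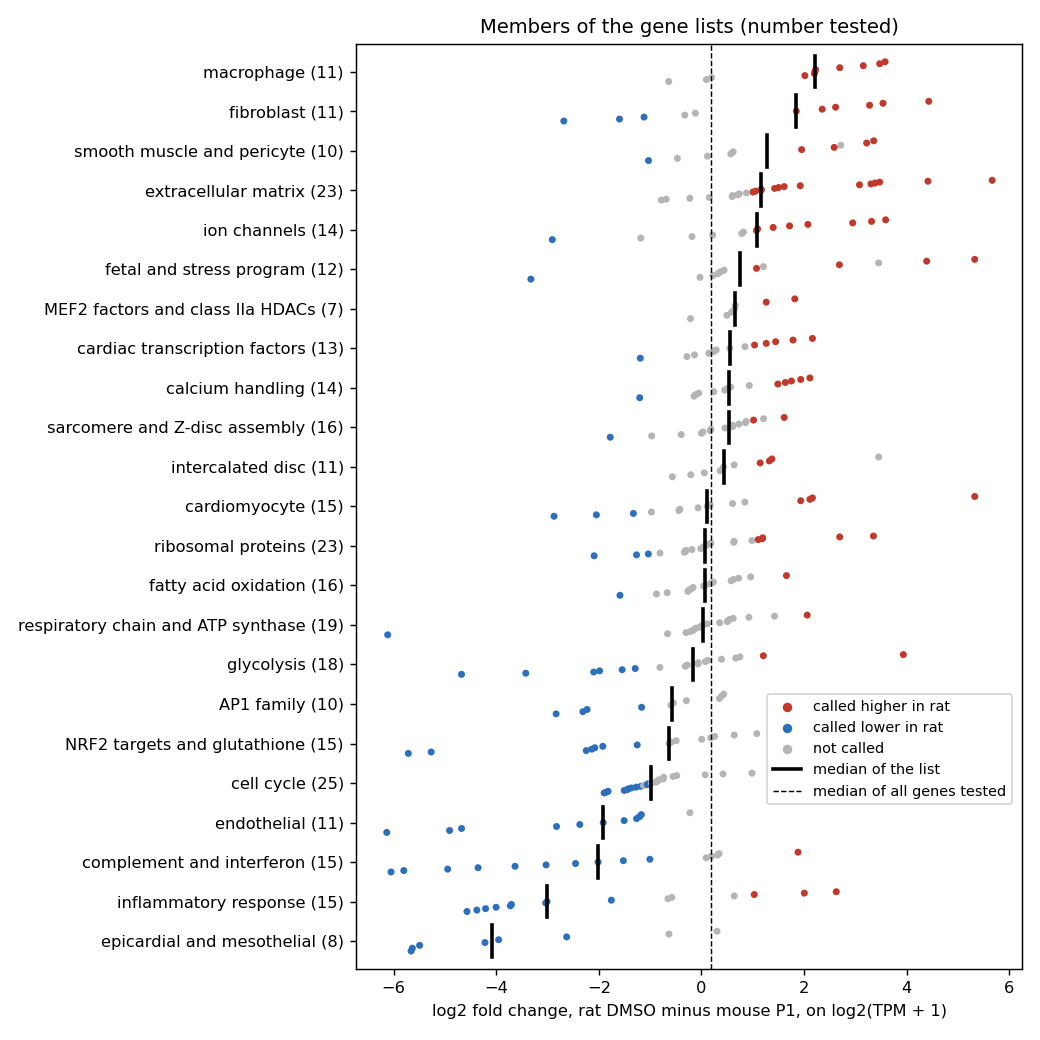
Log2 fold change, rat DMSO minus mouse P1 (x axis), of each tested member of 23 gene lists (points, colored by call). Short bars are list medians, and the dashed line is the median of all tested genes, 0.18. Medians of the endothelial, epicardial, inflammatory and interferon lists lie to the left of 0 and those of the fibroblast, macrophage and extracellular matrix lists to the right.

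Of the AP-1 factors, dimers of Fos and Jun proteins that many stimuli induce, 0 of the 10 members tested were higher in rat and 4 were lower (median log2 fold change −0.57). Fosl1, the Fos relative FRA1, was at 47.6 and 20.6 TPM in mouse and 2.53, 2.58 and 6.42 TPM in rat. Fosl2, the Fos relative FRA2, was at 49.4 and 38.9 TPM in mouse and 7.54, 6.8 and 10.1 TPM in rat. Batf, a member of leukocytes, was at 12.9 and 9.42 TPM in mouse and 1.68, 2.26 and 0.938 TPM in rat. Fosl1, Fosl2 and Batf were lower in rat, with log2 fold changes of −2.83 ± 0.48, −2.31 ± 0.21 and −2.23 ± 0.28 (adjusted p = 0.0037, 0.000504 and 0.00134), and every rat library lay below both mouse libraries. Fosl2 had a rat to mouse length ratio of 0.12. Jun, the founding Jun protein, was at 59.1 and 63.3 TPM in mouse and 68.5, 56.6 and 134 TPM in rat. Junb, another Jun protein, was at 121 and 148 TPM in mouse and 83.8, 98.2 and 83.5 TPM in rat. Atf3, a stress-induced partner, was at 22.7 and 30.9 TPM in mouse and 37.2, 37.2 and 28.5 TPM in rat. Jun, Junb and Atf3 were not called, at log2 fold changes of 0.39 ± 0.36, −0.60 ± 0.14 and 0.35 ± 0.20 (adjusted p = 0.38, 0.0124 and 0.168), and Junb had no overlap between the groups. Of the immediate early genes, 2 of the 12 members tested were higher in rat and 2 were lower (median log2 fold change 0.16), with a median of −0.03 after median-of-ratios scaling. The counts were 1 higher and 0 lower without mouse replicate 1, and 1 higher and 1 lower without mouse replicate 2. Egr2, a zinc finger factor, was at 2.73 and 3.09 TPM in mouse and 7.67, 7.74 and 9.19 TPM in rat. Klf6, a Krüppel-like factor, was at 88.9 and 65.8 TPM in mouse and 31.9, 29.1 and 38 TPM in rat. Egr2 was higher in rat, with a log2 fold change of 1.23 ± 0.17 (adjusted p = 0.0019), and the groups did not overlap. Klf6 was lower in rat, with a log2 fold change of −1.2 ± 0.18 (adjusted p = 0.0027), and all 3 rat values lay below the mouse values. Klf6 had a rat to mouse length ratio of 0.41. Klf6 missed the fold limit without mouse replicate 1 (log2 fold change −0.98). Many of the genes that the study names were chosen there on samples of this series, so their count is not independent evidence. In this list 3 of the 20 members tested were higher in rat and 5 were lower (median log2 fold change −0.18), with 3 lower without mouse replicate 1 and 5 higher without mouse replicate 2. Csf1, the macrophage growth factor, was at 443 and 303 TPM in mouse and 70.2, 71.8 and 70.7 TPM in rat. Irs2, an insulin receptor substrate, was at 13.6 and 17.1 TPM in mouse and 31, 29.1 and 29.6 TPM in rat. Trim72, the membrane repair protein MG53, was at 142 and 229.7 TPM in mouse and 94.5, 114 and 156 TPM in rat. Csf1 was lower in rat, with a log2 fold change of −2.35 ± 0.17 (adjusted p = 0.000276), and every rat library lay below both mouse libraries. Irs2 and Trim72 were not called, at log2 fold changes of 0.93 ± 0.15 and −0.60 ± 0.28 (adjusted p = 0.00289 and 0.115), and Irs2 had no overlap between the groups. Irs2 was called without mouse replicate 2 (log2 fold change 1.09).

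Inflammatory genes were mostly lower in the cultured rat cells. In this list 3 of the 15 members tested were higher in rat and 9 were lower (median log2 fold change −3.01), beside 21.8% of all tested genes higher and 13.8% lower. The median was −2.28 without mouse replicate 1, and 5 members lay over 2-fold below both other rat libraries in rat replicate 3. Ccl2, the chemokine that attracts monocytes, was at 1378 and 961 TPM in mouse and 72.4, 92.4 and 52.9 TPM in rat. Ccl7, a related chemokine, was at 602 and 402 TPM in mouse and 28.7, 34.5 and 11.7 TPM in rat. Il6, the cytokine interleukin-6, was at 22.6 and 18 TPM in mouse and 0.231, 0.109 and 0.092 TPM in rat. Ccl2, Ccl7 and Il6 were lower in rat, with log2 fold changes of −4.0 ± 0.27, −4.38 ± 0.46 and −4.21 ± 0.19 (adjusted p = 0.000216, 0.000777 and 9.18e-05), and the groups did not overlap. Lcn2, the acute-phase protein lipocalin-2, was at 173 and 157 TPM in mouse and 5.81, 12.6 and 2.65 TPM in rat. Cebpb, a transcription factor of the acute phase, was at 15.1 and 18.3 TPM in mouse and 124, 122 and 82.9 TPM in rat. Il1b, a cytokine of activated macrophages, was at 0.132 and 0.239 TPM in mouse and 4.08, 4.64 and 2.74 TPM in rat. Cebpb and Il1b were higher in rat, with log2 fold changes of 2.63 ± 0.21 and 2.0 ± 0.23 (adjusted p = 0.000366 and 0.00105), and all 3 rat values lay above the mouse values. Lcn2 was lower in rat, with a log2 fold change of −4.57 ± 0.52 (adjusted p = 0.000996), and every rat library lay below both mouse libraries. In the complement and interferon list 1 of the 15 members tested was higher in rat and 10 were lower (median log2 fold change −2.02), with 0 higher without mouse replicate 1. Isg15, a ubiquitin-like protein, at chr4:156199424-156200818 of mm10 and chr5:173624310-173626248 of Rnor_6.0, was at 237 and 291 TPM in mouse and 2.34, 3.48 and 3.18 TPM in rat. Ifit1, an antiviral RNA-binding protein, was at 71.3 and 98.2 TPM in mouse and 0.0619, 0.193 and 1.75 TPM in rat. Oas1a, an antiviral oligoadenylate synthetase, was at 29.6 and 44.5 TPM in mouse and 0.0892, 0.174 and 0.384 TPM in rat. Isg15, Ifit1 and Oas1a were lower in rat, with log2 fold changes of −6.05 ± 0.19, −5.80 ± 0.44 and −4.95 ± 0.24 (adjusted p = 6.61e-05, 0.000311 and 9.71e-05), and the groups did not overlap. Isg15 had a rat to mouse length ratio of 1.74. B2m, the light chain of MHC class I, was at 2392 and 2508 TPM in mouse and 309, 346 and 251 TPM in rat. Bst2, tetherin, at chr8:71534255-71537456 of mm10 and chr16:19938784-19942353 of Rnor_6.0, was at 951 and 908 TPM in mouse and 9.48, 6.32 and 3.26 TPM in rat. B2m and Bst2 were lower in rat, with log2 fold changes of −3.03 ± 0.17 and −7.08 ± 0.36 (adjusted p = 0.000119 and 0.000106), and all 3 rat values lay below the mouse values. B2m had a rat to mouse length ratio of 2.12. Bst2, also known to be induced by interferon, belongs to none of the lists and had the lowest log2 fold change of the genes named by rule.

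The mouse promoters of Bst2, Isg15, Ifit1 and Mmp3 are shown because these genes were among those described as lower in rat and each holds a motif match. They were chosen after the matches were known. Each sequence is RefSeq's 250 bases before the annotated start in GRCm38.p6, read 5′ to 3′ on the gene's strand, with matches in capitals. The motifs were GAAA followed after any 2 bases by another GAAA, the core of the interferon response element, and TGACTCA, the AP-1 site. Both strands were searched, and neighboring matches can overlap.
Bst2, chr8:71537473-71537722, minus strand: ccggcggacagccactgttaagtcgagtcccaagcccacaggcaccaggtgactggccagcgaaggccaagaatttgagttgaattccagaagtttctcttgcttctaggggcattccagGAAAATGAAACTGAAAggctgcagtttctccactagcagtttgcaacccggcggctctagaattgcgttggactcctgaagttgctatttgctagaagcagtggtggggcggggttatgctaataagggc
Isg15, chr4:156200819-156201068, minus strand: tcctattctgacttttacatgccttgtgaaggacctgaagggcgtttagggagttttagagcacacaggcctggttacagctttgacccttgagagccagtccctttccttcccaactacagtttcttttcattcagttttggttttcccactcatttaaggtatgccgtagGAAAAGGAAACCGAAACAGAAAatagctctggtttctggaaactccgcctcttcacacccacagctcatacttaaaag
Ifit1, chr19:34640639-34640888, plus strand: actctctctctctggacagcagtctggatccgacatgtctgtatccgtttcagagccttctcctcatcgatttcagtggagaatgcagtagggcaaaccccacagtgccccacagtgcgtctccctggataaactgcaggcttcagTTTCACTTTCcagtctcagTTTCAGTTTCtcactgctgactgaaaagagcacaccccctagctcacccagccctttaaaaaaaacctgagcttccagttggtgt
Mmp3, chr9:7445572-7445821, plus strand: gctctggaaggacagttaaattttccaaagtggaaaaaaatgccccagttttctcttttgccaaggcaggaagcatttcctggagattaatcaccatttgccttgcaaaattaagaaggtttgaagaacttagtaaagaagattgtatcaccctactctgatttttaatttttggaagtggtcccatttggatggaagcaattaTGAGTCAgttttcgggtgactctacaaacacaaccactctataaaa

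Bst2 held 2 matches and Isg15 held 3, all on the gene's strand, while Ifit1 held 2 and Mmp3 held 1 on the opposite strand. The interferon motif was in 2.98% of all promoters of the table, 2.91% of tested genes with a promoter, 2.45% of those called higher in rat and 4.31% of those called lower, and 6 of the 12 members of the complement and interferon list with a promoter held it. TGACTCA was in 4.46% of all promoters, 4.01% of tested genes, 4.55% of those called higher and 5.23% of those called lower, and in 3 of the 8 protease list members with a promoter. A match says only that these letters stand in the mouse window, and rat promoters were not analysed here. Among these 4 genes, Bst2 alone had a peak within 1 kb of its start in both mouse P1 lists of open chromatin (ATAC-seq).

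Several genes of the oxidative stress response were lower in rat. Of the targets of NRF2 and the glutathione genes, 0 of the 15 members tested were higher in rat and 7 were lower (median log2 fold change −0.63), with 4 lower without mouse replicate 1 and 1 higher without mouse replicate 2. Mt1, a metal-binding metallothionein, was at 592 and 502 TPM in mouse and 12.2, 14.4 and 13 TPM in rat. Gstm1, a glutathione transferase, was at 195 and 130.4 TPM in mouse and 45.8, 43.7 and 22.2 TPM in rat. Hmox1, heme oxygenase 1, was at 611 and 446 TPM in mouse and 165, 149 and 52.7 TPM in rat. Mt1, Gstm1 and Hmox1 were lower in rat, with log2 fold changes of −5.27 ± 0.13, −2.14 ± 0.35 and −2.25 ± 0.51 (adjusted p = 4.6e-05, 0.0035 and 0.0109), and every rat library lay below both mouse libraries. Hmox1 was no longer called without mouse replicate 1 (adjusted p = 0.106) or without mouse replicate 2 (adjusted p = 0.0651). Ftl1, the ferritin light chain, was at 5612 and 3679 TPM in mouse and 90.1, 90.1 and 77.1 TPM in rat. Ftl1 was lower in rat, with a log2 fold change of −5.72 ± 0.20 (adjusted p = 6.97e-05), and the groups did not overlap. Ftl1 has near-identical copies, between which reads can be split, so its value is uncertain. Of the heat shock chaperones, 0 of the 13 members tested were higher in rat and 1 was lower (median log2 fold change −0.31), with 2 lower without rat replicate 3. Hsp90aa1, the inducible cytosolic HSP90, was at 510.01 and 474 TPM in mouse and 206, 185 and 269 TPM in rat. Hsp90aa1 was lower in rat, with a log2 fold change of −1.18 ± 0.18 (adjusted p = 0.00265), and all 3 rat values lay below the mouse values. Of the amino acid and unfolded protein response, 0 of the 15 members tested were higher in rat and 2 were lower (median log2 fold change −0.28). The count lower was 5 after median-of-ratios scaling, 6 without rat replicate 3, and 1 without mouse replicate 1 or rat replicate 2. Phgdh, the first enzyme of serine synthesis, was at 245 and 231 TPM in mouse and 79.3, 90.5 and 123 TPM in rat. Phgdh was lower in rat, with a log2 fold change of −1.3 ± 0.20 (adjusted p = 0.00257), and every rat library lay below both mouse libraries. No gene of cholesterol synthesis was called by limma among 16 (median 0.37). In rat replicate 3, 11 of them lay over 2-fold above both other rat libraries, and without it 1 was lower and the median was −0.08. Fdps, farnesyl diphosphate synthase, was at 144 and 141 TPM in mouse and 147, 126 and 582 TPM in rat. Fdps was not called, at a log2 fold change of 0.63 ± 0.65 (adjusted p = 0.432), with overlap between the groups.

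In the glucocorticoid and clock list 5 of the 15 members tested were higher in rat and 2 were lower (median log2 fold change 0.68), beside 21.8% of all tested genes higher and 13.8% lower. The count higher was 4 with either other scaling and in all fits that left out 1 library other than rat replicate 3, with 0 lower without mouse replicate 1 and 1 lower without mouse replicate 2 or rat replicate 2. Per2, a period protein, was at 2.36 and 3.29 TPM in mouse and 13.5, 13.7 and 27 TPM in rat. Per3, another period protein, was at 3.84 and 5.53 TPM in mouse and 46.8, 53 and 44.2 TPM in rat. Cry2, a cryptochrome, was at 9.21 and 10.2 TPM in mouse and 27.1, 28.3 and 31.1 TPM in rat. Per2, Per3 and Cry2 were higher in rat, with log2 fold changes of 2.26 ± 0.34, 3.12 ± 0.18 and 1.47 ± 0.14 (adjusted p = 0.00244, 0.000142 and 0.000562), and the groups did not overlap. Per3 had a rat to mouse length ratio of 0.56. Sgk1, a kinase induced by glucocorticoids, was at 169 and 141 TPM in mouse and 40.7, 44.4 and 18.8 TPM in rat. Nr3c1, the glucocorticoid receptor, was at 38.6 and 35.1 TPM in mouse and 60.9, 55.3 and 62.9 TPM in rat. Sgk1 was lower in rat, with a log2 fold change of −2.21 ± 0.37 (adjusted p = 0.00375), and all 3 rat values lay below the mouse values. Nr3c1 was not called, at a log2 fold change of 0.68 ± 0.12 (adjusted p = 0.00403), although the groups did not overlap. Sgk1 was no longer called without mouse replicate 1 (adjusted p = 0.0528). The hour of harvest is not given in the sources used here. Of the ribosomal protein genes, 5 of the 23 members tested were higher in rat and 3 were lower (median log2 fold change 0.08), with a median of −0.12 and 3 higher after median-of-ratios scaling. By ranks 0 were higher and 0 were lower. Called members had very unequal annotation: the length ratio was 0.10 for Rps20 (log2 fold change 3.35 ± 0.12), 0.28 for Rpl18 (2.69 ± 0.12) and 5.34 for Rpl7 (−2.09 ± 0.12). Such genes have many processed copies, so reads can be split between loci. Rplp0, the stalk protein P0, was at 3658 and 3132 TPM in mouse and 3650.1, 3789 and 3519 TPM in rat. Rplp1, the stalk protein P1, was at 3291 and 2845 TPM in mouse and 3614, 2955 and 3135 TPM in rat. Rplp0 and Rplp1 were not called, at log2 fold changes of 0.11 ± 0.17 and 0.08 ± 0.18 (adjusted p = 0.6 and 0.738), with overlap between the groups.

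Among genes at 0.1 TPM or more in all 5 libraries, the 10 with the largest log2 fold change ranged from 5.67 to 7.58 and the 10 with the lowest from −5.75 to −7.08. Ptn, the growth factor pleiotrophin, was at 8.14 and 6.49 TPM in mouse and 1015, 1026 and 229 TPM in rat. Lrrc17, a secreted leucine-rich repeat protein, was at 0.223 and 0.49 TPM in mouse and 94.7, 110.3 and 79 TPM in rat. Col14a1, a fibril-associated collagen, was at 3.56 and 7.62 TPM in mouse and 333, 315 and 308 TPM in rat. Ptn, Lrrc17 and Col14a1 were higher in rat, with log2 fold changes of 6.23 ± 0.67, 6.13 ± 0.19 and 5.67 ± 0.27 (adjusted p = 0.000839, 6.61e-05 and 9.6e-05), and every rat library lay above both mouse libraries. Ptn was lowest among the rat libraries in rat replicate 3. Paqr6, a membrane progestin receptor, was at 0.233 and 0.857 TPM in mouse and 139.8, 128 and 106 TPM in rat. Ptgfr, the receptor of prostaglandin F2 alpha, was at 0.861 and 1.23 TPM in mouse and 148, 140.1 and 89.5 TPM in rat. Paqr6 and Ptgfr were higher in rat, with log2 fold changes of 6.37 ± 0.22 and 5.93 ± 0.25 (adjusted p = 6.97e-05 and 8.76e-05), and the groups did not overlap. Ptgfr had a rat to mouse length ratio of 0.53. The other 5 of the 10 had uneven annotation or shared reads. Best1 and H3f3c had length ratios of 2.16 and 2.42, and Col4a4 and Lypd1 of 0.51 and 0.53. Mir675 lies inside the host RNA H19, which was not matched, and its reads cannot be told from those of H19. Genes of the vessel lining were also among those lower. Plvap, a protein of endothelial diaphragms, was at 144 and 135 TPM in mouse and 1.64, 2.0 and 1.23 TPM in rat. Selp, the adhesion receptor P-selectin, was at 118 and 72.9 TPM in mouse and 0.265, 0.246 and 0.111 TPM in rat. Plvap and Selp were lower in rat, with log2 fold changes of −5.75 ± 0.18 and −6.28 ± 0.24 (adjusted p = 6.61e-05 and 8.76e-05), and all 3 rat values lay below the mouse values. Ckmt2, the mitochondrial creatine kinase of muscle, was at 114 and 229.6 TPM in mouse and 2.2, 1.63 and 1.35 TPM in rat. Thbs4, thrombospondin-4, was at 74.7 and 180.5 TPM in mouse and 0.318, 0.247 and 0.865 TPM in rat. Anxa3, annexin A3, was at 284 and 246 TPM in mouse and 3.09, 0.918 and 2.3 TPM in rat. Ckmt2, Thbs4 and Anxa3 were lower in rat, with log2 fold changes of −5.91 ± 0.32, −6.33 ± 0.40 and −6.49 ± 0.33 (adjusted p = 0.000117, 0.000182 and 0.000104), and every rat library lay below both mouse libraries. Anxa3 had a rat to mouse length ratio of 1.86. Ndufs6 and Tmsb10 completed the 10, with length ratios of 0.62 and 0.22. Outside this rule, 76 tested genes are listed at 0 in both mouse libraries and 62 in all 3 rat libraries.

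By ranks over all tested genes, the rat libraries resembled mouse libraries of P1 somewhat more than those of other ages. The rat cells were isolated at P1 but collected later, after culture. Averaged over library pairs, the Spearman correlation with the rat DMSO libraries was 0.760 for E18.5, 0.787 for P1, 0.776 for P3 and 0.744 for P7, with 2 mouse libraries at each age. Pearson's r of log2(TPM + 1) was 0.764, 0.784, 0.776 and 0.745. The ranges over pairs overlapped between P1 (0.771 to 0.800) and P3 (0.765 to 0.791), and the values are descriptions across genes that share libraries. The classes rest in part on the mouse P1 level, and 522 of the genes called higher lay below 1 TPM in both mouse P1 libraries, so the change of their mouse RNA with age is a description over genes. From E18.5 to P7, in libraries that the comparison did not use, the median log2 change was 0.10 for genes called higher in rat, 0.72 for genes called lower and 0.40 for genes not called, beside 0.38 over all tested genes. Of these classes 18.4, 37.4 and 22.7% respectively were called higher at P7 than at E18.5, beside 23.8% of all tested genes, and 12.5, 8.65 and 8.67% were called lower, beside 9.5%. With TPM rescaled over matched genes, the genes called higher in rat had a median of 0 and were called higher at P7 in 15.3% of cases and lower in 15.96%. Marker lists moved with mouse age too. Cardiomyocyte markers summed to 61656 and 76477 TPM in the E18.5 libraries, against 25630 and 22558 TPM in those of P3 and 7005 and 3529 TPM in those of P7. Fibroblast markers reached 5232 and 6608 TPM in the P7 libraries, and red cell genes 47739 and 56761 TPM in the E18.5 libraries. The part of these shifts in the medians was not tested.

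**Figure D5:**
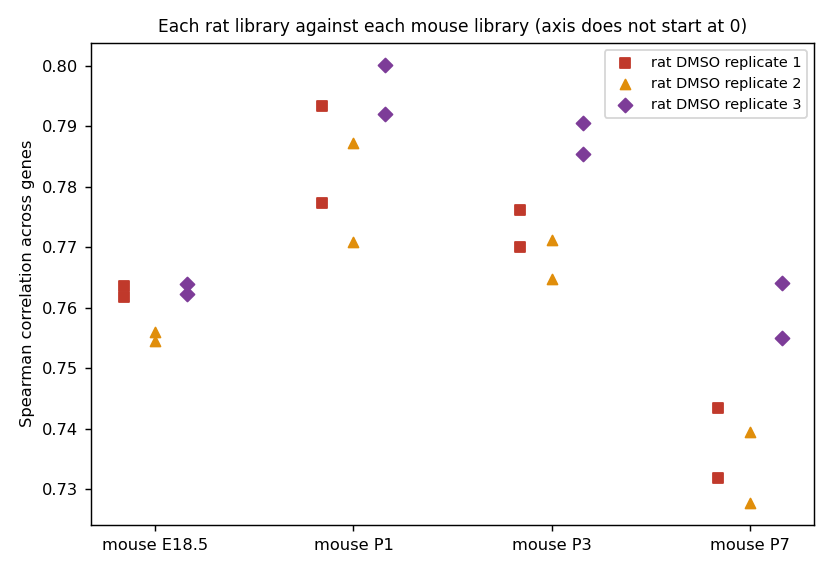
Spearman correlation over the tested genes (y axis, not starting at 0) of each rat DMSO library with each mouse RNA-seq library, by mouse age (x axis). Points are library pairs, with a symbol for each rat replicate. The means are 0.760, 0.787, 0.776 and 0.744 for E18.5, P1, P3 and P7, and rat replicate 3 has the highest values at P1.

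Open promoters in mouse P1 cells are given for the same classes as a description. A peak in both P1 ATAC-seq lists (29281 and 19753 peaks) lay within 1 kb of the start of 39.7% of tested genes (Wilson 95% interval 38.9 to 40.6). The share was 30.3% for genes called higher in rat (28.5 to 32.1), 31.5% for genes called lower (29.3 to 33.8) and 44.7% for genes not called (43.6 to 45.8). The intervals cover counting error only, and genes are not independent. Of the tested genes, 693 reached 1 TPM in rat libraries only, 522 of them called higher, and 406 in mouse libraries only, 359 of them called lower. The median mouse P1 level was 6.24 TPM for genes called higher, 30.3 TPM for genes called lower and 25.4 TPM for genes not called. The part of level in the shares was not tested, and rat chromatin was not analysed here.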

How the data were processed

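RNA was poly(A)-selected, made into non-stranded libraries and sequenced as 150-base pairs by the authors, so overlapping antisense genes cannot be separated. The authors aligned reads with HISAT2 2.1.0 to mm10 (GENCODE vM21) or Rnor_6.0 (Ensembl 103) and deposited StringTie tables with coverage, FPKM and TPM per transcript, each library on its own; the headers give StringTie 1.3.5 for mouse and 1.3.4d for rat, while the labels give 1.3.5. The deposited P1 ATAC-seq peak lists were called per library, and their scores and other columns were not used. TPM hold no counts, and coverage was not turned into counts. No counting error is therefore given, and the precision rests on 3 and 2 libraries.

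Transcript TPM were summed per gene, genes matched by identical symbol, and log2(TPM + 1) fitted with limma 3.58.1 (R 4.3.3, eBayes with trend) over 5 libraries, with Benjamini-Hochberg adjustment over 11966 genes. Percentile ranks were fitted likewise. The design written for the tests was kept, and the code was tested on simulated data. Shares of gene pairs were compared by an exact 2-sided permutation test (scipy 1.17.1). Genes were named by rule: genes named in the study, the 10 largest changes in each direction, the 2 most abundant members of a list and up to 3 called members with the largest change in each direction, pair members and the 8 most abundant genes of each group. Some genes that the rule names are not reported here. Members, lists and comparisons were chosen with earlier results of these data known. Alternatives were the pseudocount (0.1), the filter on low levels, FPKM, 2 other scalings, length-matched genes, all 14 RNA libraries in 1 fit, a replicate block, each library left out and a peak distance of 2.5 kb.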

Additional observations from a re-analysis of the deposited data

How the results depend on the processing

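The count of 4260 called genes (2607 higher and 1653 lower in rat) became 4159 with median-of-ratios scaling (2121 and 2038, with 3774 calls shared), 4327 with TPM rescaled over matched genes, 3790 on FPKM, 4599 with a pseudocount of 0.1, 3333 at a mean of 5 TPM or more, 4241 with no filter and 4338 in 1 fit over 14 libraries. Leaving out each library in turn gave 3553 to 4553 calls, the lowest without mouse replicate 1. No gene was called in opposite directions between the reported test and any of these. With transcript lengths within 1.5 times, 1637 genes were higher. Replicate numbers do not pair a mouse with a rat library. The deviations of same-numbered libraries had correlations of −0.12 for number 1 and 0.12 for number 2. With 2 mouse libraries the mouse deviations mirror each other, and rat replicates 1 and 2 were alike, so opposite signs were fixed in advance. These correlations therefore cannot show pairing or its absence. With the replicate number as a block, 4584 genes were called (2852 and 1732), 4099 of them shared. In that fit rat replicate 3 has no mouse partner and drops out of the contrast.

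Over the P7 change in mouse, rescaled TPM gave medians of 0.22 for all tested genes, 0 for genes called higher, 0.56 for genes called lower and 0.23 for genes not called. With a distance of 2.5 kb, the share of genes with a promoter peak was 42.7% for all, 33.6% for called higher, 34.2% for called lower and 47.5% for not called; with a peak in either list it was 69.3, 56.0, 60.8 and 75.6%. Among named genes 113 single values no longer passed and 29 newly passed under some setting, and 0 turned direction. No setting was left out. The count of calls was 3553 and 3984 without mouse replicates 1 and 2, and 4044 to 4553 without 1 rat library. The median log2 fold change of 9 lists changed sign without 1 library: the cardiomyocyte, erythroid, immediate early, fatty acid oxidation, respiratory chain, YAP and TEAD, cholesterol, insulin-like growth factor and ribosomal protein lists. Of the named genes, Hk2 was not called in 1 fit over 14 libraries (adjusted p = 0.0536). No counts were used, so depth sets no stated limit.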
